A study of Caenorhabditis elegans with 2 samples.

Results

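The mitochondrial ribosomal protein genes of Caenorhabditis elegans were taken as every protein-coding gene of the WBcel235 annotation whose symbol begins with mrpl- or mrps-. There were 70 of them among 19973 nuclear protein-coding genes, 41 named for the large subunit (mrpl) and 29 for the small subunit (mrps). A gene was counted as bound when the summit of a peak in the list that the authors call conservative, made from both replicates, fell in its window. The window ran from 1000 bp before the gene's 5' end to 500 bp after it. Of the 70 genes, 4 were bound, and in 2 of these 4 the summit lay just before the start of a small nucleolar RNA (snoRNA) gene, inside an intron of a neighbouring gene.

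The data are chromatin immunoprecipitation sequencing (ChIP-seq) of whole young adult worms aged 63 hours, synchronized as starved L1 larvae, in 2 biological replicates that form the only group. The strain, RW12265, carries a TY1, EGFP and 3xFLAG tag placed by CRISPR at Y56A3A.18 on chromosome III, a gene annotated as znf-593, and both replicates carry this allele. Antibody against GFP recovered the tagged protein from all tissues of the animal at once, so the cell type behind a peak is not known. The labels name a control experiment that was not analysed here, so no level from untagged worms stands beside the values, and with a single group no conditions could be compared.

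The mitochondrial ribosome translates the few messenger RNAs made from mitochondrial DNA, all of which encode subunits of the respiratory chain and ATP synthase. Its own proteins are encoded in the nucleus, made in the cytosol and imported. Many descend from bacterial ribosomal proteins and carry the bacterial number, and others are found only in mitochondria. In C. elegans, lowering mrps-5 by RNA interference is known to lengthen life and to switch on the mitochondrial unfolded protein response. The yeast homolog of the tagged protein, Bud20, accompanies the precursor of the large cytosolic ribosomal subunit out of the nucleus.

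The bases around 4 summits are shown first, for a pair of peaks between genes beside a mitochondrial ribosomal protein gene, 1 inside a neighbouring gene and 1 inside a member's own coding sequence. Each is read from the WBcel235 (ce11) reference of RefSeq, 5′ to 3′ in the direction of the mitochondrial ribosomal protein gene, from 100 bp before the summit to 100 bp after it, with annotated untranslated bases left off. In the sequences at mrpl-28 (chrII:156010-156191, minus strand) and mrpl-32 (chrIII:8449347-8449543, plus strand), capitals mark the longest run of bases that they share. In that upstream of mrps-28 (chrV:19643141-19643341, plus strand), they mark TCGAACC, the reverse complement of GGTTCGA, which is part of the B box inside tRNA genes. In that at the start of mrpl-50 (chrII:8929853-8930036, plus strand), which opens with the start codon, they mark AGACGC.
mrpl-28: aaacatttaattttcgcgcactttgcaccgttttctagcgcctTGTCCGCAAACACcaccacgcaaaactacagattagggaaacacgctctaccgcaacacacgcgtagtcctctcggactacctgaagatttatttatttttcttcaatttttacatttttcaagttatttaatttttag
mrpl-32: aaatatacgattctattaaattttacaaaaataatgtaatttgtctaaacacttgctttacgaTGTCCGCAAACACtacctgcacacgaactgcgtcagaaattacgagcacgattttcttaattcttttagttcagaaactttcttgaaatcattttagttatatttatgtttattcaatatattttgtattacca
mrps-28: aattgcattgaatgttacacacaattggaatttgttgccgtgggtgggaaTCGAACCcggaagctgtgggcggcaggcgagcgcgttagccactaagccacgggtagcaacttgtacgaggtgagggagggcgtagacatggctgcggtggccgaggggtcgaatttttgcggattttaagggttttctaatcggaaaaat
mrpl-50: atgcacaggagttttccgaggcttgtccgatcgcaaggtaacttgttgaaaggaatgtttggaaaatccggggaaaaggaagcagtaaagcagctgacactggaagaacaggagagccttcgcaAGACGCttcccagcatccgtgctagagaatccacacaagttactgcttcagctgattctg

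Bound genes made up 5.71% of the 70 (exact binomial 95% interval 1.58 to 14.0%, covering the counting of genes only), beside 3.89% of all protein-coding genes. That share is near the background, and no test was made of it. The 4 genes were mrpl-28, mrpl-32, mrpl-23 and mrps-28.

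The gene mrpl-28 had the summit closest to its own start. It encodes the counterpart of the bacterial large-subunit protein L28 and lies on the minus strand of chromosome II at 154881 to 156009. Its peak spanned 155941 to 156240, with the summit 82 bp upstream of the 5' end, between genes. The next protein-coding gene in that direction, etr-1, lies 6365 bp away on the other strand. The signal (column 7 of the deposited lists, a strength of enrichment whose scale is not stated) was 88.7 with both replicates together. In the replicates' own ranked lists it was 47.7 in replicate 1 and 36.9 in replicate 2, a mean of 42.3 ± 7.65 (SD, n = 2), at 72 and 127 bp upstream. Both replicates thus placed it in the upstream region within 55 bp of each other.

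The peak at mrpl-32 lay in the gap between this gene and the one before it. The gene encodes the counterpart of L32, a protein that in yeast and mouse is cut by the mitochondrial m-AAA protease before it joins the ribosome. It lies on the plus strand of III at 8449757 to 8450519. Its upstream neighbour on the same strand, rpn-3, a subunit gene of the proteasome lid, ends 411 bp before it. The peak ran from 8449293 to 8449592 and its summit was 314 bp upstream of mrpl-32, outside both genes. The signal was 100.5 with both replicates together, 58.1 in replicate 1 and 36.6 in replicate 2, a mean of 47.3 ± 15.2 (SD, n = 2). The replicates' summits were 33 bp apart, and replicate 1 was the higher.

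The remaining bound genes, mrps-28 and mrpl-23, were reached only from the far edge of the window. The gene mrps-28, counterpart of a small-subunit protein related to bacterial S1, lies on the plus strand of V at 19644239 to 19645676. Its peak (19643091 to 19643390) had the highest signal of the 70 genes, 153.0 with both replicates together, 75.4 in replicate 1 and 73.3 in replicate 2, a mean of 74.3 ± 1.5 (SD, n = 2). The summit was 998 bp upstream, 54 bp before the start of the snoRNA gene Y43F8C.22, in an intron of the divergent gene Y43F8C.7. The replicates' summits were 6 bp apart.

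The gene mrpl-23 encodes the counterpart of L23, which sits at the rim of the tunnel through which the new protein leaves the ribosome. It lies on the minus strand of I at 6211270 to 6211885, and 96 bp upstream of it ends fars-1, a phenylalanyl-tRNA synthetase gene on the same strand. Its peak (6212704 to 6213003) reached 102.7 with both replicates together, 39.4 in replicate 1 and 49.3 in replicate 2, a mean of 44.3 ± 6.95 (SD, n = 2). The summit was 969 bp upstream, inside an intron of fars-1. There it fell in a pseudogene, WBGene00023344, and 30 bp before the start of the snoRNA gene T08B2.13. The noncoding RNA gene T08B2.14, on the plus strand at 6212695 to 6212915, also spans the summit. Leaving out summits within 200 bp of a tRNA, snRNA or snoRNA gene left mrpl-28 and mrpl-32 as the bound members, 2.86% of the 70 beside 3.32% of all genes. A narrower window, reaching 500 bp before the 5' end and 200 bp after it, gave the same pair of genes, beside 2.67% of all genes.

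**Figure D1:**
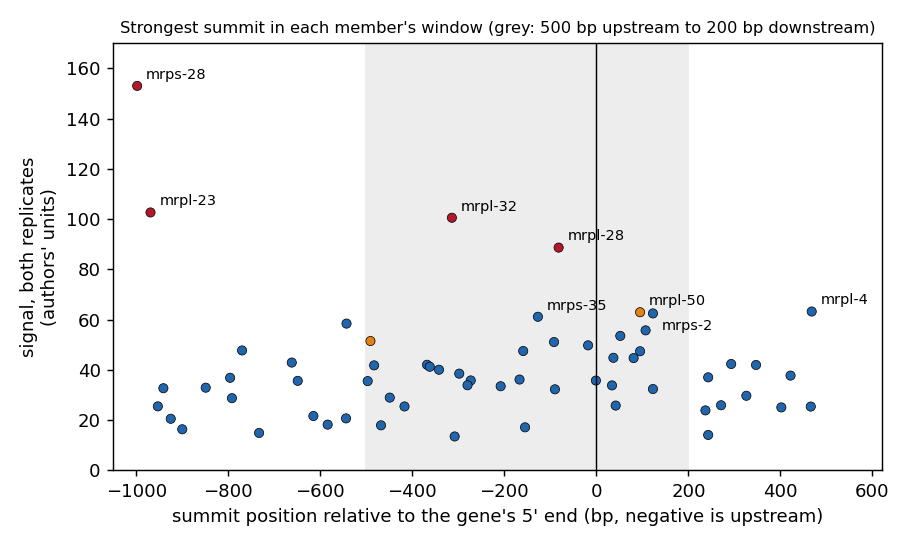
Position of the strongest summit of both replicates in each gene's window, in bp from the 5' end (x axis, negative is upstream), against its signal in the authors' units (y axis), for the 62 members with a summit. Red points are in the conservative list, orange points only in the other thresholded list and blue points in neither. Of the red points, mrpl-28 and mrpl-32 lie in the grey band from 500 bp upstream to 200 bp downstream, and mrps-28 and mrpl-23 lie at 998 and 969 bp upstream.

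Few members were in the replicates' own thresholded lists. That of replicate 1 had a summit at 4 of the 70 (5.71%, beside 2.00% of all genes), namely mrps-28, mrpl-32, mrpl-28 and mrpl-50. That of replicate 2 had 2 (2.86%, beside 1.85%), mrps-28 and mrpl-23. In both was mrps-28 alone, 1 of the 4 and 1 of the 2, counts too small to set against the 202 of all genes in both (50.5% of the 400 in replicate 1 and 54.7% of the 369 in replicate 2). The second thresholded list of both replicates held 6 members (8.57%, beside 4.01%), the 4 bound genes with mrpl-50 and mrpl-12.

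The summit at mrpl-50 fell within the gene's own coding sequence. This gene, which encodes a large-subunit protein without a bacterial counterpart, starts 26 bp after the end of cct-2, a subunit gene of the cytosolic chaperonin, on the plus strand of II. With both replicates together the summit was 95 bp downstream of the start, with a signal of 62.9. Replicate 1 had 48.5 at 91 bp downstream. Replicate 2 had a pair of summits of nearly equal signal, 19.4 at 974 bp upstream and 19.3 at 95 bp downstream. The latter lay 4 bp from that of replicate 1, so both replicates had a summit there, with the lower signal in replicate 2.

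The summit at mrpl-12 lay nearer to other genes. The gene encodes the counterpart of L7/L12, the stalk protein that calls translation factors to the ribosome, on III at 10707761 to 10708521. Its summit, 491 bp upstream with a signal of 51.5, was 242 bp from the start of Y39A1A.22 and 248 bp from that of Y39A1A.21, both on the other strand. Replicate 1 gave 39.3 and replicate 2 gave 16.9, a mean of 28.1 ± 15.8 (SD, n = 2).

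The 4 bound genes had the highest significance of the 70. This is not a separate result, because their list held only peaks of high significance. The authors' significance for a peak of both replicates is −log10 of the irreproducible discovery rate (IDR), in the ranked list of both replicates that holds every conservative peak. All 1687 conservative peaks stood at 2 or above there, but 1797 ranked peaks did, so this value alone does not define the list. The lowest of the 4 was mrpl-28 at 3.11. The highest unbound gene was mrps-18.C at 1.87, with a signal of 53.5 at 52 bp downstream of its start. After it came mrpl-50 at 1.74, mrpl-53 at 1.69, mrpl-17 at 1.64 and mrps-35 at 1.59. The other thresholded list did not follow this value, since 448 of its peaks lay below 2, mrpl-50 and mrpl-12 (1.29) among them, while it did not hold mrps-18.C. A second ranked list of both replicates, with significance values of its own, was not used here. Of these unbound genes, mrps-35, a gene of a small-subunit protein without a bacterial counterpart, had a signal of 61.1. Its summits in the replicates were 129 and 131 bp upstream, in an untranslated region of the overlapping gene sws-1, with 22.8 in replicate 1 and 28.7 in replicate 2.

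The ranked lists, which hold every peak before the threshold, showed weak summits at most of the genes. Replicate 1 had a summit in the window of 50 of the 70 (71.4%, beside 52.8% of all protein-coding genes) and replicate 2 in that of 61 (87.1%, beside 54.7%). Both had one for 46 genes (65.7%, beside 38.4%), and either for 65 (92.9%, beside 69.1%). The strongest signal per window had a median of 19.8 in replicate 1 (lowest 7.75, highest 75.4) and 16.6 in replicate 2 (lowest 2.96, highest 73.3). Over all genes with a summit these medians were 17.6 and 14.8. A summit in these lists is not a called peak, and the higher shares were not tested.

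The list of both replicates together had a summit for 62 members (88.6%, beside 71.0%), and its median was 35.9 against 26.2 over all genes with one. By subunit, 34 of the 41 mrpl genes had such a summit, with a median of 33.8, and 28 of the 29 mrps genes, with a median of 37.7. In the list of replicate 2 all 29 mrps genes had a summit and 32 of the 41 mrpl genes did, beside 54.7% of all genes. In that of replicate 1, 22 of the 29 mrps genes and 28 of the 41 mrpl genes did, beside 52.8%. The difference between the subunits was not tested. By place, 15 of the 62 strongest summits lay between genes, 21 inside the member's own gene and 26 inside another gene, 17 of these in its coding sequence. Places were not counted over all genes, so these numbers have no background beside them.

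**Figure D2:**
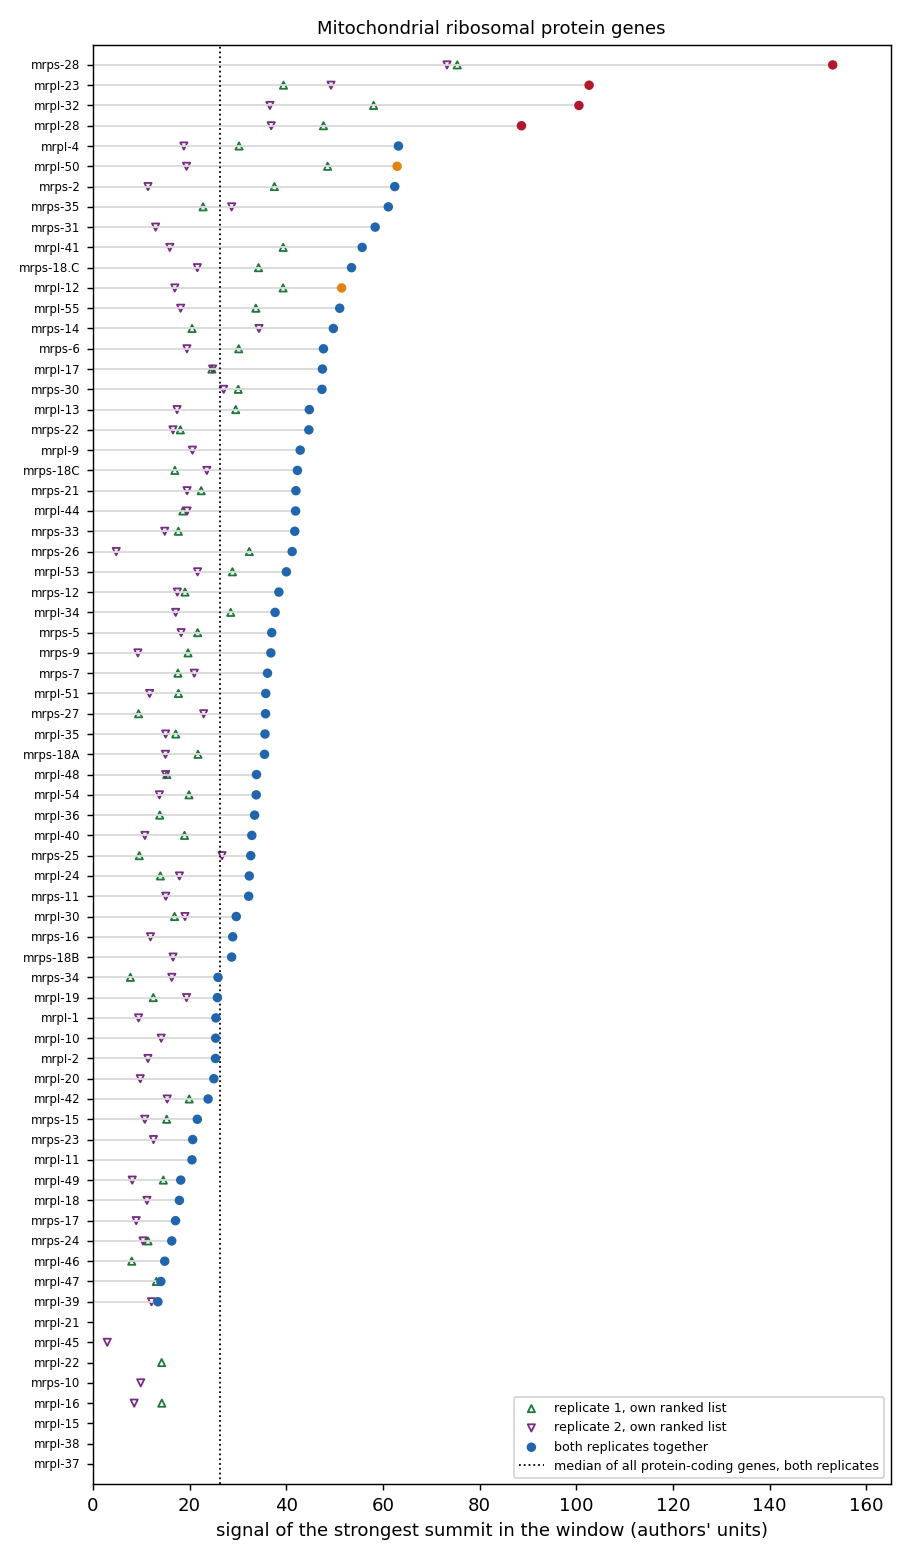
Signal of the strongest summit in the window of each of the 70 genes, in the authors' units (x axis), ordered by the value of both replicates together (dots; red for the conservative list, orange for the other thresholded list only, blue for neither), with each replicate's own value as triangles. The 4 bound genes lie between 88.7 and 153.0 and the next, mrpl-4, at 63.2; the dotted line is the median of all genes, 26.2.

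Several unbound genes had unequal strongest signals in the replicates. The gap was wide at mrps-26, a small-subunit gene named here after its values were seen, with 32.4 in replicate 1 and 4.83 in replicate 2, 808 bp apart. Replicate 1 also had a summit of 18.4 in that window, 190 bp from that of replicate 2. At mrpl-41, a large-subunit gene without a bacterial counterpart, the strongest signal was 39.4 in replicate 1 and 15.9 in replicate 2. At mrpl-55 it was 33.7 and 18.1, with the summits on opposite sides of the start, but replicate 1 also had a summit of 22.3 that lay 40 bp from that of replicate 2. At mrps-14, a small-subunit gene, replicate 2 was the higher, with 34.4 against 20.5, but its summit lay 960 bp upstream and that of replicate 1 at 2 bp. Replicate 2 also had a summit of 28.4 at 22 bp upstream, 20 bp from that of replicate 1, so at both genes the replicates shared a place that was the strongest in 1 of them only.

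The neighbours mrps-2 and mrpl-4, named here after their values were seen, also had a higher signal in replicate 1. On the plus strand of V, natc-1, mrps-2 and mrpl-4 follow each other with gaps of 117 and 106 bp. The strongest signal at mrps-2 was 37.5 in replicate 1 and 11.4 in replicate 2, 18 bp apart inside the gene. At mrpl-4 it was 30.2 and 18.8. With both replicates together they reached 62.4 and 63.2, at 123 and 468 bp downstream of the starts. At mrps-30, which despite its name belongs to the large subunit in mammals, the replicates had 30.1 and 27.1, from summits on opposite sides of the start, and replicate 2 had a summit of 7.34 within 1 bp of that of replicate 1. The gene mrps-18.C, of the S18 family of the small subunit, had 34.3 and 21.6, at 51 and 120 bp downstream.

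At the low end, 5 genes had no summit in either replicate's ranked list, namely mrpl-11, mrpl-15, mrpl-21, mrpl-37 and mrpl-38. Either list had a summit for 65 of the 70 members, beside 69.1% of all protein-coding genes. Both had one for 46 (65.7%), beside 38.4%. The lists of replicates 1 and 2 reached 52.8% and 54.7% of all genes. A further 19 members had a summit in a single replicate, 15 of them in replicate 2 and 4 in replicate 1. The 4 were mrpl-22, mrpl-36, mrpl-46 and mrpl-47. No count of this split over all genes was made, so it is not read as a trait of the members. The 15 included mrpl-1, mrpl-10 and mrps-31, whose signal in replicate 2 was 9.45, 14.1 and 13.0. With both replicates together mrps-31 reached 58.4, although replicate 1 alone had no summit there. Among genes with a summit in both replicates, the lowest means belonged to mrps-24 (10.9 ± 0.73, SD, n = 2), counterpart of bacterial S3, mrpl-49 (11.3 ± 4.54), mrpl-16 (11.4 ± 4.04) and mrps-34 (12.03 ± 6.06). For mrps-5, named for what is known of it in the worm, the replicates had 21.7 and 18.3, a mean of 20.0 ± 2.42, from summits 237 and 395 bp downstream of the start.

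The functional regions of the large subunit held 1 bound gene among them, mrpl-23, whose summit lay 969 bp upstream in an intron of fars-1. With 3.89% of all protein-coding genes bound, counts in groups this small are not read as differing from the background. The 8 genes for proteins at the rim of the exit tunnel included mrpl-23 and had a median signal of 37.1 with both replicates together, for 6 with a summit. The 6 genes for the central protuberance, a part of the contact between the subunits, had none bound and a median of 32.9 for 5 with a summit. The 4 genes for the stalks, mrpl-1, mrpl-10, mrpl-11 and mrpl-12, had none bound and a median of 25.4. The regions are those of the mammalian ribosome. These medians lay within the range of single genes in each group, so no order among the regions is read from them.

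Agreement between the replicates was weak. Over the 46 genes with a summit in both ranked lists, the log2 signals correlated with a Spearman rho of 0.35 and a Pearson r of 0.40, beside 0.46 and 0.54 over 7668 protein-coding genes. Without bound genes, which the IDR selects for agreement between replicates, they were 0.15 and 0.05 over 42 members, beside 0.29 and 0.27 over 6900 genes. The genes are not independent replicates, and the values come from the same pair of libraries. The strongest summits of the replicates lay within 50 bp of each other for 21 of the 46 (45.7%, beside 28.0% of all genes) and over 500 bp apart for 7 (15.2%, beside 29.1%). Replicate 1 was the higher at 33 of the 46 (71.7%) and at 65.1% of all genes.

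**Figure D3:**
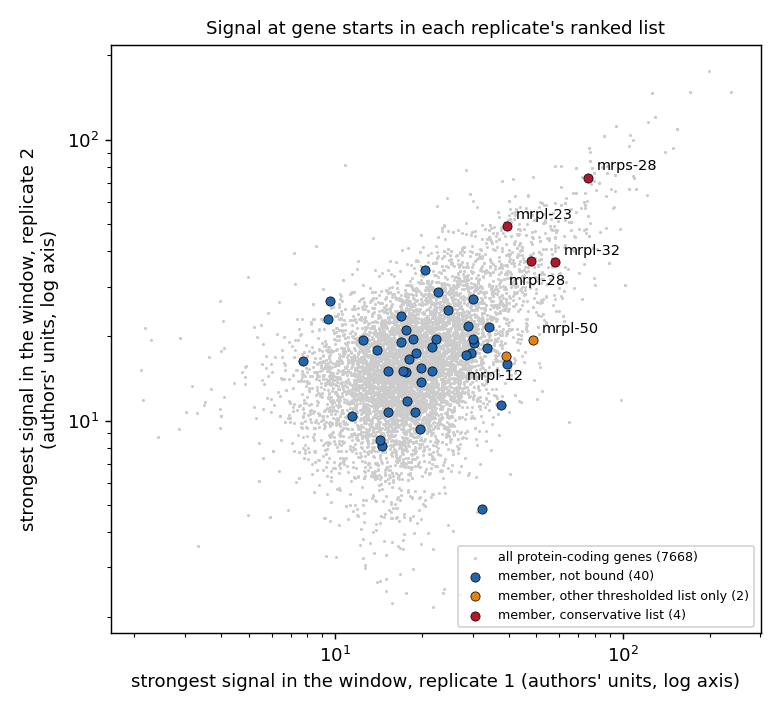
Strongest signal in the window in replicate 1 (x axis) and replicate 2 (y axis), in the authors' units on log axes, for 7668 protein-coding genes (grey) and 46 members (coloured). The 4 bound members (red) lie at the upper right. The 40 members in neither thresholded list (blue) are spread among the grey points, with mrps-26 (32.4 and 4.83) low in replicate 2.

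The genes are spread over the autosomes, and none is on X. Chromosome III held 22 of the 70 (31.4%, beside 13.2% of all protein-coding genes), I held 15, II 12, IV 11 and V 10. The bound genes were 1 each on I, II, III and V, where 5.18%, 4%, 5.08% and 2.54% of all genes were bound, and none on IV, with 3.78%. Many have a close neighbour. A protein-coding gene on the same strand ended within 500 bp upstream of 27 members (38.6%, beside 18.1% of all genes), and 2 of these were bound, mrpl-23 and mrpl-32. Of all genes with such a neighbour, 5.70% were bound. For 26 members (37.1%, beside 17.7% of all genes) a gene on the other strand started within 1000 bp upstream. Of these 26, 1 was bound, mrps-28, beside 5.85% of all such genes. Of the 17 members with neither (24.3%, beside 64.4% of all genes), mrpl-28 was bound, beside 2.87% of all genes with neither. A window can thus take in a neighbour's peak, and 2 members had a tRNA, snRNA or snoRNA gene in theirs, mrpl-4 and mrpl-23.

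Other nuclear genes that serve mitochondria, and the cytosolic ribosomal protein genes, were counted by the same rule against the same 3.89%. Of 81 cytosolic ribosomal protein genes 26 were bound (32.1%). Of 50 genes for the respiratory chain, its assembly factors named cox- and ATP synthase, 10 were bound (20.0%), led by cox-5A with a signal of 138.9. Protein import had 1 of 13, tomm-20 (104.0), which encodes a receptor of the outer membrane translocase. Mitochondrial chaperones and proteases had 1 of 11, the chaperonin gene hsp-60 (189.7), and tRNA synthetase genes with symbols ending in -2, most of them mitochondrial, 1 of 11, ears-2 (64.2). None of 6 mitochondrial translation factor genes and none of 6 genes for mitochondrial DNA and RNA upkeep was bound. The differences between these lists and the 70 genes were not tested.

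**Figure D4:**
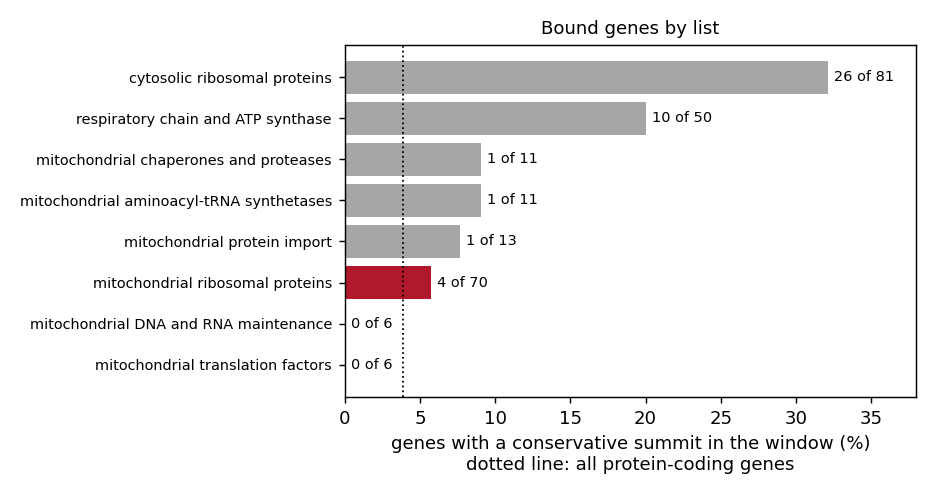
Share of genes with a conservative summit in the window, in percent (x axis), for the 70 mitochondrial ribosomal protein genes (red) and 7 other lists (grey), with counts beside the bars. The members stand at 5.71%, near the 3.89% of all protein-coding genes (dotted line), and the cytosolic ribosomal protein genes at 32.1%.

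Short words were searched on both strands from 250 bp upstream to 50 bp downstream of each start. AGACGC was present at 6 of the 70 genes (8.57%, beside 7.90% of all protein-coding genes) and CACGTG, the E box, at 5 (7.14%, beside 5.84%). The word TGATAA, bound by factors of the GATA family, was present at 19 (27.1%, beside 30.3%). TATAAA was present at 24 (34.3%, beside 38% of all). GGTTCGA was found at none, beside 1.43% of all. None of the 5 words occurs within 100 bp of the summits at mrpl-28, mrpl-32 and mrpl-23, although 14.2% of the windows of that length around the 1687 conservative summits hold AGACGC and 12.8% hold GGTTCGA. The window at mrps-28 holds GGTTCGA on the strand opposite to the one printed. These matches describe letters in the reference and not sites of binding.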

How the data were processed

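The authors deposited peak lists on assembly ce11, per the READMEs deposited with them, filtered or ranked by IDR. Neither aligner nor peak caller is given in the sources used here. Column 7 is the signal per peak as deposited by the authors, never negative, of unstated scale. The −log10 values used are the authors' IDR per peak, as deposited. The conservative list held 1687 peaks, the replicates' ranked lists 51496 and 52336, and their thresholded lists 817 and 754. The ranked list of both replicates used here, which holds every conservative peak, had 94653. No read counts were used, so depth is unknown.

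Summits were compared with Ensembl release 115 (WBcel235) gene models, with 1-based coordinates, in Python 3.11.15 with pandas 2.3.3. All peaks ended within the reference chromosomes, and the start codons of all 70 genes read ATG in the reference. Where a window held several summits, the strongest was used, and medians cover only genes with a summit. The window rule was tested on simulated peaks. No significance test was made. Genes are named if bound under any setting or if highest, lowest or missing in the replicates. Members, lists and regions were chosen with earlier results of these data known.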

Additional observations from a re-analysis of the deposited data

How the results depend on the processing

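The count of 4 bound genes and the 3.89% of all genes were recomputed under 10 alternatives. Over the lists of single replicates the count ran from 2 to 4 for the 70 genes and from 369 to 400 for all protein-coding genes, against 777. A window reaching 500 bp before the 5' end and 200 bp after it gave 2, beside 2.67% of all genes. Leaving out summits near tRNA, snRNA and snoRNA genes also gave 2, beside 3.32%. In both, the genes lost were mrps-28 and mrpl-23, whose summits lie just before snoRNA genes and near the window's edge. Peaks at or above the median signal left 4 members and 439 of all genes. The nearest protein-coding 5' end whose window held the summit, any transcript start and any base of the peak kept the same 4 genes. The matching shares of all genes were 3.22%, 4.28% and 4.28%. The start of Y43F8C.7 is nearer to the summit assigned to mrps-28, but that summit lies outside the window of Y43F8C.7. The other thresholded list gave 6, beside 4.01% of all genes. The window from 2000 bp upstream gave 5, with mrpl-48, beside 1081 of all genes (5.41%). The median strongest signal ranged from 18.1 to 20.2 in replicate 1 and from 14.5 to 17.3 in replicate 2 over the windows and choices of summit tried. No alternative moved either from its value of 19.8 or 16.6 by as much as the SD of 2.27 between the replicates' medians. That SD rests on 2 values and does not measure the uncertainty of either median. No paired analysis was possible because the 2 replicates form 1 group.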

Other observations

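The run of 13 bases shared by the peaks of mrpl-28 and mrpl-32, TGTCCGCAAACAC, was noticed after the sequences had been read, and no test was made of it. It occurs 28 times in the nuclear genome, counting both strands, and in 3 of the 1687 windows of 100 bp to each side of a conservative summit (0.178%). The remaining window belongs to the bound gene F13H8.2. Its middle lies 51 bp upstream of the summit at mrpl-28 and 27 bp upstream of that at mrpl-32, in the same direction as either gene.

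A copy lies from 1000 bp upstream to 500 bp downstream of 23 protein-coding genes. Apart from mrpl-28 and mrpl-32, from whose peaks the run was taken, 1 of the remaining 21 was bound, F13H8.2, beside 3.89% of all genes. A further mitochondrial ribosomal protein gene is among them, mrps-16, a counterpart of bacterial S16, with the copy 223 bp upstream of its start and in the same direction. It was not bound. Its strongest summit of both replicates had a signal of 28.9 and lay 449 bp upstream, replicate 2 had 11.9 at 201 bp downstream, and replicate 1 had no summit in the window.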
